A study of Oryza sativa Japonica Group with 12 samples.

Results

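Leaf RNA of rice line 7, which carries an artificial microRNA against the chlorophyll synthase gene YGL1, was compared with leaf RNA of the unmodified cultivar. The comparison used the 4 libraries labelled Line7 and the 4 labelled WT, which are 8 of the 12 libraries of the series and were chosen by their titles. Both groups were Nipponbare, a japonica cultivar of Oryza sativa, grown in the field and sampled as leaf at 10 in the morning. Line7 was homozygous for the transgene p35s-Ami-YGL1, in which the 35S promoter, active in most plant tissues, drives the microRNA. Line7 is a single transgenic line and no group carried a control construct, so effects of silencing YGL1, of the insertion site and of carrying a transgene cannot be told apart. Whether each replicate came from its own plant is not in the labels, and the p-values therefore measure only how far these libraries spread, which may be technical. More than a single season and site are described and none is assigned to a library, so season or site and genotype cannot be told apart. The comparison asks how leaf expression differs in a plant engineered to make less chlorophyll. In bulk leaf RNA, fewer cells of a type and less RNA per cell cannot be told apart.

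Plants build chlorophyll in the plastid from aminolevulinate, which is condensed into a porphyrin ring. Magnesium chelatase inserts magnesium into that ring, later enzymes modify the ring, and chlorophyll synthase attaches the phytol tail. The finished pigment is bound by the light-harvesting proteins of both photosystems, and free intermediates of the pathway are photosensitizers that produce reactive oxygen in the light. The count table names genes by locus ID only and no file used here pairs these IDs with names, so each symbol below is the one under which that locus is known in rice.

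Library totals of the 8 libraries ran from 14746933 to 19822636 counts, and 24174 to 24940 rows of 38978 had at least 1 count. The 10 most abundant rows took 11.6 to 12.5% of the counts in WT and 8.55, 9.76 and 10.1% in Line7 replicates 1, 3 and 4. They took 11.6% in the library labelled Line7 replicate 2. That library stood apart from the other Line7 libraries, so each result is given over all 4 Line7 libraries (the 4-library comparison) and over replicates 1, 3 and 4 (the 3-library comparison). It was left out because of its values, which makes the p-values of the 3-library comparison smaller than those of a comparison chosen without them. Levels are in CPM, counts scaled to the library total after TMM correction, in replicate order where single libraries are listed. Changes are log2 fold changes of Line7 over WT with their standard error (SE). A gene passed where the adjusted p-value of edgeR's quasi-likelihood test was below 0.05.

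The target gene YGL1 (Os05g0349700) measured 57.7, 44.2, 47.8 and 69.1 CPM in WT replicates 1 to 4. It measured 34.4, 27.4 and 27.8 CPM in Line7 replicates 1, 3 and 4, and 68.1 CPM in the library labelled Line7 replicate 2. The 3 former libraries lay below every WT library, whereas the fourth lay inside the WT range, near its upper end, and so went against its label. In the 3-library comparison YGL1 was 1.83-fold lower (log2 change -0.87, SE 0.191, adjusted p = 0.00592), with means of 29.9 ± 3.94 CPM (SD, n = 3) and 54.7 ± 11.2 CPM (SD, n = 4). The exact two-sided permutation p of those levels was 0.0571, the smallest that 3 against 4 libraries allow. In the 4-library comparison the change was -0.47 (SE 0.275, adjusted p = 0.291), and the exact two-sided permutation p was 0.229.

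Across all rows, the 3-library comparison called 5156 of 20490 tested rows, 3058 higher and 2098 lower in Line7, and the 4-library comparison called 1409 of 20217, 1196 higher and 213 lower. The share of calls that were higher was 59.3% in the 3-library comparison, and 49.0% with upper-quartile scaling, which moved the median log2 change of all tested rows from -0.03 to -0.12. The 3-library count was 3173 without Line7 replicate 1 and 3036 without Line7 replicate 3. Over 4 libraries, 5442 rows had an unadjusted edgeR p below 0.05, and 4641, 4845, 4244 and 5054 had it without WT replicates 1 to 4. The count of 4-library calls, made on the adjusted p, moved more when single libraries were left out. It was 11, 490, 7 and 18 without WT replicates 1 to 4, 14, 12 and 406 without Line7 replicates 1, 3 and 4, and 864 without replicate 4 of Line8, the second transgenic line, whose libraries share in the estimate of the spread.

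The 5156 rows of the 3-library comparison were called with the library labelled Line7 replicate 2 left out for its values. Its position near WT over these rows is therefore partly fixed by that choice. That library lay a median of 8.07% of the way from the WT mean to the mean of Line7 replicates 1, 3 and 4 on the log2 scale (quartiles -7.95 and 26.6%). It was inside the WT range for 3324 of these rows (64.5%), and 455 rows (8.82%) lay past halfway. For 1334 rows (25.9%) it was outside the WT range on the side of the other Line7 libraries, and for 498 on the opposite side. These shares were not counted over all tested rows or for a further WT library, so they do not measure how far it differed from WT. That library was not like WT throughout. Os03g0629800, an ID with no name here, had 0 counts in all WT libraries and 9.75, 11.2, 12.6 and 8.99 CPM in Line7 replicates 1 to 4. Os07g0457200, also unnamed, measured 1.52 to 2.62 CPM in WT and 0.0641, 0.0561, 0 and 0.207 CPM in Line7. For both IDs, picked because all 4 Line7 libraries lay outside the WT range, the library labelled Line7 replicate 2 sat with its group.

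**Figure D1:**
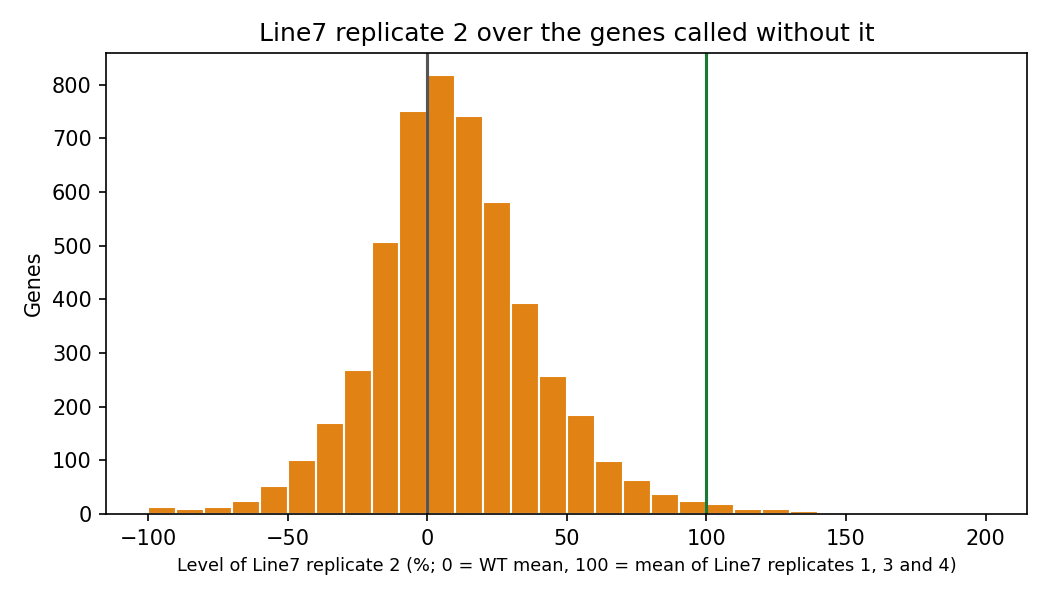
Number of rows by the level of the library labelled Line7 replicate 2, over the 5156 rows called in the 3-library comparison. The horizontal axis is that library's position in percent on the log2 scale, where 0 is the WT mean and 100 the mean of Line7 replicates 1, 3 and 4, and the end bins hold all values beyond them. The bars centre near 0, with a median of 8.07%, which is partly fixed because the rows were called without that library.

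Genes of 23 pathways, 257 in all, were examined, and 221 were abundant enough to test. In the 3-library comparison 52 were higher and 36 lower, beside 14.9% higher and 10.2% lower among all rows tested (25.2% called either way). In the 4-library comparison 23 were higher and 2 lower, beside 5.92% and 1.05% (6.97% either way). These shares over all rows are the ones to set beside each list count below. The median log2 change of the 221 was -0.10 and -0.04, beside -0.03 and -0.01 for all rows. Of the 88 genes called in the 3-library comparison, 53 stayed called whichever further library was left out. The library labelled Line7 replicate 2 was inside the WT range for 64 of the 88, beside 64.5% of all 5156 rows called. It was past halfway for 3, namely LHY, WRKY45 and WRKY62, beside 8.82%. All 4 Line7 libraries lay outside the WT range for 25 of the 221, beside 11.2% of all rows. Of these, 9 lay above WT and 16 below, beside 4.71% and 6.46%. Line7 replicates 1, 3 and 4 did so for 123 of the 221, beside 40.8%, with 67 above and 56 below, beside 21.4% and 19.5%.

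**Figure D2:**
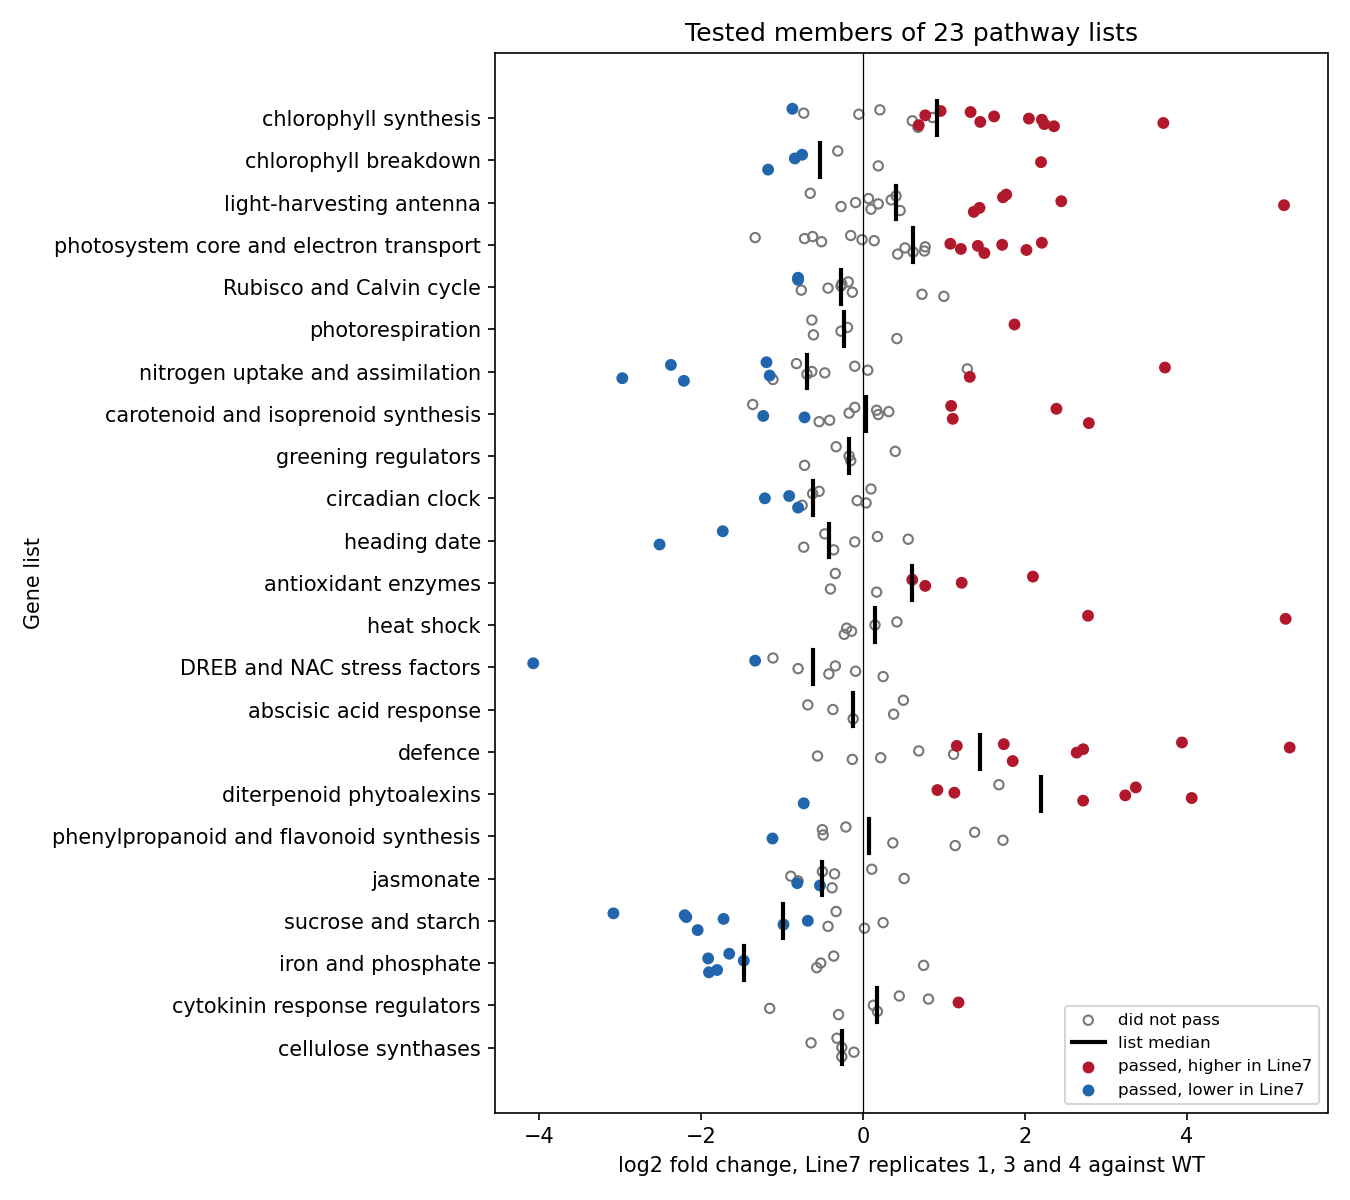
Log2 fold change of Line7 replicates 1, 3 and 4 over WT for the 221 tested members of 23 pathway lists. Each point is a gene, filled red where it passed as higher and blue where it passed as lower, and the black bar is the list median. The lists of chlorophyll synthesis, defence and diterpenoid phytoalexins have medians of 0.91, 1.45 and 2.20, and sucrose and starch and iron and phosphate have medians of -0.98 and -1.47.

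Chlorophyll synthesis genes other than the target were mostly higher in Line7 replicates 1, 3 and 4. Of 18 members, 11 were higher and only YGL1 was lower in the 3-library comparison, with a median log2 change of 0.91. In the 4-library comparison 6 were higher and none lower, with a median of 0.70. The genes that passed ran from the aminolevulinate step to the reductases that finish the ring and its tail.

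At the start of the pathway, GSA (Os08g0532200), the aminotransferase that forms aminolevulinate, measured 99.5, 135, 95.3 and 101 CPM in WT. It measured 572, 553 and 532 CPM in Line7 replicates 1, 3 and 4, and 106 CPM in the library labelled Line7 replicate 2. The 3 libraries were far above WT and the fourth was among the WT values. The log2 change was 2.36 (SE 0.18, adjusted p = 3.7e-06) in the 3-library and 2.03 (SE 0.399, adjusted p = 0.0173) in the 4-library comparison. HEMA1 (Os10g0502400), the glutamyl-tRNA reductase that commits glutamate to the pathway, did not pass (0.68, SE 0.767, adjusted p = 0.556), and its groups overlapped.

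Among the enzymes that assemble the porphyrin ring, CPOX (Os04g0610800), coproporphyrinogen oxidase, changed the most. It measured 23.7, 15.9, 9.64 and 18.5 CPM in WT, 219, 289 and 158 CPM in Line7 replicates 1, 3 and 4, and 19.3 CPM in the library labelled Line7 replicate 2. That is a 13.1-fold higher level (log2 change 3.71, SE 0.296, adjusted p = 4.58e-06) in the 3-library comparison, and a log2 change of 3.34 (SE 0.592, adjusted p = 0.0146) over all 4. PBGD (Os02g0168800), the deaminase that links the pyrroles, was at 9.96 to 18.2 CPM in WT and at 68.9, 76.4 and 58.8 CPM in Line7 replicates 1, 3 and 4, with 12.1 CPM in the library labelled replicate 2. Its change was 2.24 (adjusted p = 0.000371) and 1.91 (adjusted p = 0.0335). PPOX1 (Os01g0286600), which oxidises the ring to protoporphyrin, changed by 1.45 (adjusted p = 0.00011) and 1.21 (adjusted p = 0.0271). ALAD (Os06g0704600), which makes the pyrrole unit, passed over 3 libraries (0.69, adjusted p = 0.00842) and not over 4 (0.51, adjusted p = 0.153).

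Of the magnesium chelatase subunits, CHLD (Os03g0811100) and CHLI (Os03g0563300), the pair that drives the insertion with ATP, were higher. CHLD was at 57.9, 63.7, 39.9 and 38.0 CPM in WT and at 256, 223 and 216 CPM in Line7 replicates 1, 3 and 4, with 41.5 CPM in the library labelled replicate 2. CHLI was at 57.3, 109, 67.7 and 62.5 CPM in WT and at 301, 321 and 301 CPM in the same 3 libraries, with 63.4 CPM in the library labelled replicate 2. Neither group of 3 overlapped WT. The log2 change of CHLD was 2.21 (SE 0.196, adjusted p = 1.03e-05) over 3 libraries and 1.88 (adjusted p = 0.0234) over 4, and that of CHLI was 2.05 (SE 0.223, adjusted p = 4.53e-05) and 1.74 (adjusted p = 0.0272). CHLH (Os03g0323200), the subunit that holds the porphyrin, did not pass (0.61, SE 0.277, adjusted p = 0.129), and its level was 1060 ± 209 CPM in WT (SD, n = 4) and 1620 ± 486 CPM in Line7 (SD, n = 3). GUN4 (Os11g0267000), which binds porphyrins and stimulates the chelatase, had a log2 change of 0.86 and did not pass (adjusted p = 0.0864). It passed without Line8 replicate 3 (adjusted p = 0.00784) and with only the WT and Line7 libraries (adjusted p = 0.0029). It also passed with a replicate block (adjusted p = 0.045) and with library totals without scaling (adjusted p = 0.0444).

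After the chelatase, CHLM (Os06g0132400), the methyltransferase, was 3.07-fold higher over 3 libraries (log2 change 1.62, adjusted p = 0.00885) and missed the threshold over 4 (1.34, adjusted p = 0.0779). CRD1 (Os01g0279100), a cyclase subunit, PORB (Os10g0496900), the light-dependent protochlorophyllide reductase, and CHLP (Os02g0744900), which reduces the tail precursor to phytyl diphosphate, passed narrowly over 3 libraries with changes of 0.77, 1.33 and 0.96. Each of these 3 calls was lost on leaving out WT replicate 1, 3 or 4 or Line7 replicate 1, 3 or 4, and for CRD1 also Line8 replicate 4. The adjusted p then ran from 0.0602 to 0.147 for CRD1, from 0.0698 to 0.0942 for PORB and from 0.0522 to 0.0909 for CHLP. With no further library left out, CRD1 was also lost with RLE scaling (adjusted p = 0.0522), upper-quartile scaling (adjusted p = 0.0789) or no filter on low counts (adjusted p = 0.0557). PORB was lost without that filter (adjusted p = 0.0518) and CHLP with upper-quartile scaling (adjusted p = 0.0501). Over 4 libraries none of the 3 passed, with changes of 0.58 (adjusted p = 0.211), 1.12 (adjusted p = 0.116) and 0.76 (adjusted p = 0.157). The divinyl reductase DVR (Os03g0351200, -0.05), the reductase PORA (Os04g0678700, -0.73) and CAO1 (Os10g0567400, 0.21), which makes chlorophyll b, did not pass in either comparison.

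**Figure D3:**
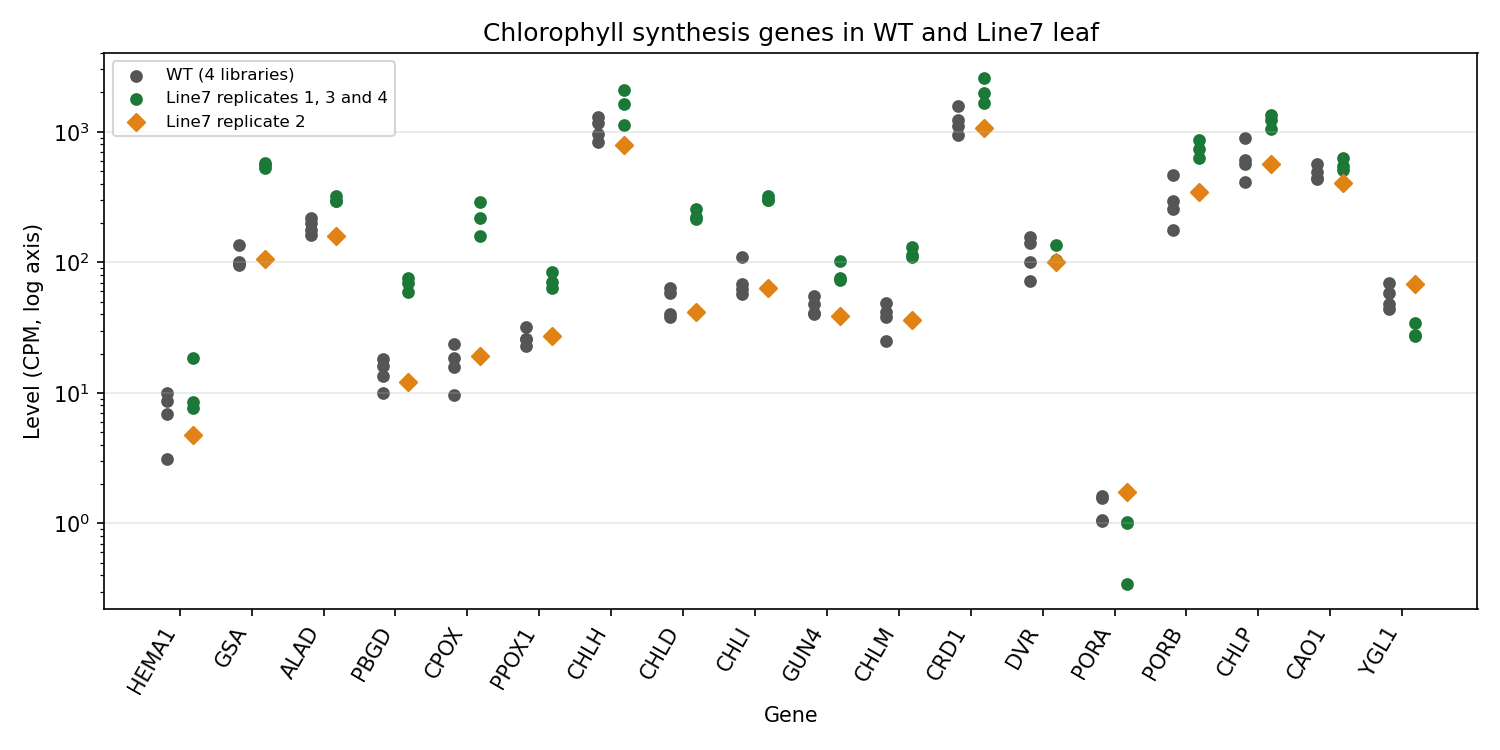
Level in CPM (log axis) of the 18 chlorophyll synthesis genes, in pathway order with the target YGL1 last. Each point is a library, with 4 grey WT circles, 3 green circles for Line7 replicates 1, 3 and 4, and an orange diamond for the library labelled Line7 replicate 2. The green points of GSA, PBGD, CPOX, CHLD and CHLI lie above all WT points, and the diamonds lie among the WT points.

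Genes of chlorophyll breakdown moved in both directions. Of 6 members, 1 was higher and 3 were lower over 3 libraries (median -0.53), and over 4 libraries only NOL was higher (median -0.36). NOL (Os03g0654600), which with NYC1 converts chlorophyll b to a, was at 15.4, 11.4, 10.1 and 14.1 CPM in WT and at 64.9, 69.6 and 41.5 CPM in Line7 replicates 1, 3 and 4, with 14.9 CPM in the library labelled replicate 2. It was 4.59-fold higher over 3 libraries (log2 change 2.20, SE 0.203, adjusted p = 1.33e-05) and its change over 4 was 1.90 (adjusted p = 0.0157). SGR (Os09g0532000), the stay-green magnesium dechelatase, was lower (-1.17, adjusted p = 0.00581), as was PAO (Os03g0146400), the oxygenase that opens the ring (-0.75, adjusted p = 0.0039). SGR stood at 63.3 to 97.8 CPM in WT and at 31.8, 27.7 and 49.9 CPM in the 3 Line7 libraries, with 87.9 CPM in the library labelled replicate 2. NYC3 (Os06g0354700), a plastid hydrolase needed for pigment breakdown, was lower over 3 libraries (-0.84, adjusted p = 0.0166), but not without Line7 replicate 1 (adjusted p = 0.0673) or 3 (adjusted p = 0.0738). NYC1 (Os01g0227100) itself did not pass (0.19, adjusted p = 0.337). Over 4 libraries the changes of SGR, PAO and NYC3 were -0.73 (adjusted p = 0.168), -0.53 (adjusted p = 0.105) and -0.60 (adjusted p = 0.14).

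Among the light-harvesting proteins, 6 of 15 were higher and none lower over 3 libraries, with a median of 0.41, and 1 was higher over 4, with a median of 0.30. Lhca6 (Os09g0439500), a minor photosystem I antenna protein, had the largest log2 change of the list. It was at 1.67, 2.28, 1.47 and 2.43 CPM in WT, at 81.0, 101 and 34.8 CPM in Line7 replicates 1, 3 and 4, and at 2.63 CPM in the library labelled replicate 2. The 3 libraries stood far above WT, and the fourth just above the highest WT library. The change was 36.6-fold over 3 libraries (log2 5.20, SE 0.583, adjusted p = 6.46e-05) and 4.80 on the log2 scale over 4 (SE 0.89, adjusted p = 0.0148). Lhcb4 (Os07g0558400), the linker protein CP29 of photosystem II, was at 905, 2640, 1480 and 1370 CPM in WT and at 4880, 5310 and 5690 CPM in the 3 Line7 libraries, with 1460 CPM in the library labelled replicate 2. It passed over 3 libraries (1.73, SE 0.438, adjusted p = 0.0134) and not over 4 (1.44, adjusted p = 0.0889).

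Lhcb6 (Os04g0457000), the linker CP24, and Lhca4 (Os08g0435900), of the photosystem I antenna, followed the same split between comparisons. Lhcb6 changed by 1.77 over 3 libraries (adjusted p = 0.0112) and by 1.47 over 4 (adjusted p = 0.088), and Lhca4 by 1.44 (adjusted p = 0.00663) and 1.19 (adjusted p = 0.0707). Lhca1 (Os06g0320500, 1.37, adjusted p = 0.0313) and the Lhcb1 copy Os01g0720500 (2.45, adjusted p = 0.0248) also passed over 3 libraries. Lhca1 lost its call without WT replicate 1, 3 or 4 or Line7 replicate 1, 3 or 4 (adjusted p 0.0563 to 0.0867). The Lhcb1 copy, whose reads may be shared with near-identical copies, lost it without WT replicate 1, 2 or 4 or Line7 replicate 1 or 4 (adjusted p 0.0513 to 0.083). Over 4 libraries Lhca1 changed by 1.13 (adjusted p = 0.124) and that copy by 2.11 (adjusted p = 0.101). The abundant Lhcb1 gene CAB1R (Os09g0346500), a major trimer protein of photosystem II, did not pass (0.19, adjusted p = 0.823), with 11300 ± 4880 CPM in WT (SD, n = 4) and 12900 ± 1240 CPM in Line7 (SD, n = 3). Summed over the 15 genes, the antenna level was 22700 to 46000 CPM in WT, 43400 to 52500 CPM in Line7 replicates 1, 3 and 4, and 36000 CPM in the library labelled replicate 2, so the sums overlapped.

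Nuclear genes for photosystem subunits and electron transport showed 7 of 19 higher and none lower over 3 libraries (median 0.62), and 3 higher over 4 (median 0.45). All 3 tested subunits of the oxygen-evolving complex, PsbO, PsbP and PsbQ, which shield the manganese cluster of photosystem II, were higher over 3 libraries. PsbQ (Os07g0544800) was at 202, 521, 275 and 287 CPM in WT and at 1390, 1530 and 1530 CPM in Line7 replicates 1, 3 and 4, with 270 CPM in the library labelled replicate 2. PsbO (Os01g0501800) was at 1070, 1810, 878 and 1120 CPM in WT and at 3930, 3920 and 4220 CPM in the same libraries, with 969 CPM in the library labelled replicate 2. In both genes the 3 Line7 libraries lay close together above WT. PsbQ changed by 2.21 over 3 (SE 0.396, adjusted p = 0.00178) and 1.88 over 4 libraries (adjusted p = 0.0476), PsbO by 1.72 (SE 0.354, adjusted p = 0.00409) and 1.42 (adjusted p = 0.0717), and PsbP (Os07g0141400) by 1.08 (adjusted p = 0.0123) and 0.86 (adjusted p = 0.11).

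In photosystem I, PsaH (Os05g0560000), a stromal-side subunit at the docking site of the mobile antenna, was at 237, 289, 188 and 258 CPM in WT and at 897, 1110 and 945 CPM in the 3 Line7 libraries, with 214 CPM in the library labelled replicate 2. It was 4.05-fold higher over 3 libraries (log2 change 2.02, SE 0.362, adjusted p = 0.00172) and changed by 1.70 over 4 (adjusted p = 0.0481). PsaE (Os07g0435300), which helps dock ferredoxin, passed in both comparisons (1.5, adjusted p = 0.000353, and 1.23, adjusted p = 0.0464). PsaO (Os04g0414700) and PsaK (Os07g0148900) passed over 3 libraries only (1.42, adjusted p = 0.00615, and 1.21, adjusted p = 0.0282), against adjusted p-values of 0.0922 and 0.123 over 4. PsaK lost the call without WT replicate 1 or 3 or Line7 replicate 1, 3 or 4 (adjusted p 0.0514 to 0.104). PsaD, PsaF, PsaG, PsaL and PsaN did not pass, with changes of 0.43 to 0.77. PetC (Os07g0556200), the Rieske protein of the cytochrome complex between the photosystems, did not pass either (-0.51, adjusted p = 0.208), although all 4 Line7 libraries lay below WT.

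The calls among carbon fixation genes were in the other direction. Of 10 Rubisco and Calvin cycle genes, none was higher and 2 were lower over 3 libraries (median -0.26), beside 25.2% of all rows called. None passed over 4 (median -0.30), beside 6.97%. The plastid aldolase FBA (Os11g0171300) measured 12300, 17000, 15400 and 11800 CPM in WT and 6980, 8410 and 8890 CPM in Line7 replicates 1, 3 and 4, with 11500 CPM in the library labelled replicate 2. FBPase (Os03g0267300), the plastid fructose bisphosphatase, measured 1100 to 1410 CPM in WT and 691, 711 and 791 CPM in the same libraries, with 1090 CPM in the library labelled replicate 2. All 4 Line7 libraries lay below WT for both genes. Their changes over 3 libraries were equal to 2 decimals (-0.80, adjusted p = 0.0375 for FBA and 0.0307 for FBPase). Over 4 libraries they were -0.66 (adjusted p = 0.107) for FBA and -0.63 (adjusted p = 0.121) for FBPase. FBA lost the call without WT replicate 2 or 3, Line7 replicate 1, 3 or 4, or Line8 replicate 1 or 4 (adjusted p 0.0524 to 0.184), and FBPase without WT replicate 2 or 3 or Line7 replicate 1, 3 or 4 (adjusted p 0.0513 to 0.135). Rubisco activase RCA (Os11g0707000), which frees blocked Rubisco sites, did not pass at -0.76 (adjusted p = 0.0848), with 34800 ± 8220 CPM in WT (SD, n = 4) and 20500 ± 2410 CPM in Line7 (SD, n = 3). RCA passed without Line8 replicate 2 (adjusted p = 0.0451), with only the WT and Line7 libraries (adjusted p = 0.0454) and with DESeq2 (adjusted p = 0.02). The Rubisco small subunit genes RBCS2, RBCS3 and RBCS4, near-identical copies, did not pass (-0.13 to 1.00).

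In photorespiration, the salvage path for the product of oxygen fixation by Rubisco, 1 of 6 genes passed in each comparison. Of all rows, 25.2% passed over 3 libraries and 6.97% over 4. HPR1 (Os02g0104700), the peroxisomal hydroxypyruvate reductase, was at 51.1, 51.2, 42.1 and 42.6 CPM in WT and at 192, 172 and 145 CPM in Line7 replicates 1, 3 and 4, with 50.3 CPM in the library labelled replicate 2. Its change was 1.86 over 3 libraries (SE 0.144, adjusted p = 3.92e-06) and 1.58 over 4 (SE 0.308, adjusted p = 0.0167). The leaf catalase CATC (Os03g0131200) did not pass (-0.63, adjusted p = 0.0918), but did over 3 libraries with DESeq2 (adjusted p = 0.0352). The median of the list was -0.23 in both comparisons.

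Most tested starch and sucrose genes were lower in Line7 replicates 1, 3 and 4. Of 11 tested members of 13, 7 were lower and none higher over 3 libraries, with a median of -0.98, and none passed over 4, with a median of -0.65. The plastid starch phosphorylase PHO1 (Os03g0758100) measured 61.6, 51.0, 59.1 and 45.1 CPM in WT, 7.69, 2.77 and 8.78 CPM in Line7 replicates 1, 3 and 4, and 83.4 CPM in the library labelled replicate 2. The last value was above all of WT and the others were far below. PHO1 was 8.46-fold lower over 3 libraries (log2 change -3.08, SE 0.43, adjusted p = 0.000323), and over 4 libraries its change was -1.07 (SE 0.771, adjusted p = 0.393). BEIIa (Os04g0409200), a starch branching enzyme, measured 178, 164, 146 and 109 CPM in WT and 37.7, 18.4 and 41.7 CPM in the 3 Line7 libraries, with 176 CPM in the library labelled replicate 2. It changed by -2.20 over 3 (adjusted p = 0.00113) and -1.13 over 4 libraries (adjusted p = 0.211).

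The other starch genes split in the same way. SSI (Os06g0160700), the soluble starch synthase, fell by 2.18 on the log2 scale over 3 libraries (adjusted p = 0.00935), with 258 to 383 CPM in WT, 61.7, 36.5 and 119 CPM in Line7 replicates 1, 3 and 4, and 361 CPM in the library labelled replicate 2. Without Line7 replicate 1 its adjusted p was 0.0515. GBSSII (Os07g0412100), the granule-bound synthase of leaves, was at 1920 to 2290 CPM in WT and at 628, 428 and 876 CPM in the 3 Line7 libraries, with 2350 CPM in the library labelled replicate 2 (-1.72, adjusted p = 0.00336). SPS1 (Os01g0919400), sucrose phosphate synthase, was at 438 to 594 CPM in WT and at 115, 106 and 159 CPM, with 460 CPM in the library labelled replicate 2 (-2.04, SE 0.251, adjusted p = 0.000121). AGPL2 (Os01g0633100), a subunit of the ADP-glucose enzyme, passed at -0.68 (adjusted p = 0.0119) and was lost without Line7 replicate 3 (adjusted p = 0.0634). SWEET14 (Os11g0508600), a sugar exporter, passed at -0.98 (adjusted p = 0.0252) and was lost without WT replicate 3 or 4 or Line7 replicate 1, 3 or 4 (adjusted p 0.0518 to 0.107). The glucan water dikinase GWD1 (Os06g0498400), which starts starch breakdown, did not pass (-0.33, adjusted p = 0.358), nor did the sucrose transporter SUT1 (Os03g0170900, 0.02). The exporter SWEET13 (-0.43) and AGPS2 (0.25), the small subunit of the ADP-glucose enzyme, did not pass either. Over 4 libraries the changes were -1.18 (adjusted p = 0.239) for SSI, -0.99 (adjusted p = 0.188) for GBSSII and -1.30 (adjusted p = 0.0707) for SPS1. They were -0.55 (adjusted p = 0.0707) for AGPL2 and -0.65 (adjusted p = 0.191) for SWEET14.

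**Figure D4:**
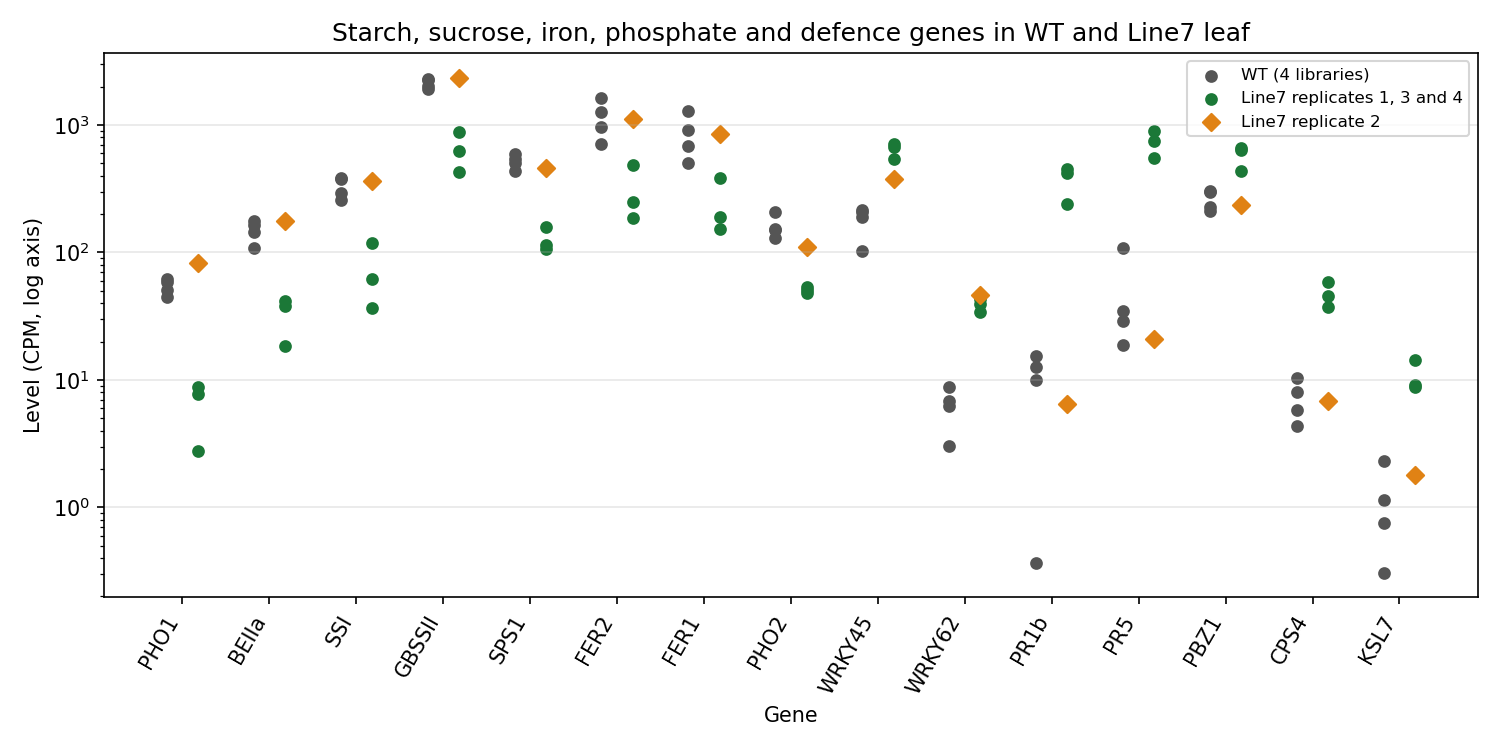
Level in CPM (log axis) of 15 starch, sucrose, iron, phosphate and defence genes. Each point is a library, with grey circles for WT, green circles for Line7 replicates 1, 3 and 4, and orange diamonds for the library labelled Line7 replicate 2. The green points of PHO1, BEIIa, SSI, GBSSII and SPS1 lie below WT and those of WRKY45, WRKY62, PR1b and PR5 above, while the diamond leaves the WT range upward for PHO1, GBSSII, WRKY45 and WRKY62.

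Genes of nitrogen uptake and assimilation gave 2 higher and 5 lower of 15 tested over 3 libraries (median -0.69), and none passed over 4 (median -0.52). Cytosolic glutamine synthetase GS1;1 (Os02g0735200), which reassimilates ammonium, was at 871, 656, 802 and 944 CPM in WT and at 367, 345 and 396 CPM in Line7 replicates 1, 3 and 4, with 802 CPM in the library labelled replicate 2 (-1.15, SE 0.244, adjusted p = 0.00492). The ammonium transporter AMT1;1 (Os04g0509600) was at 91.3 to 133 CPM in WT and at 43.3, 70.8 and 44.6 CPM in the same libraries, with 97.6 CPM in the library labelled replicate 2 (-1.19, adjusted p = 0.00429). Both groups of 3 lay below WT. Over 4 libraries GS1;1 changed by -0.78 (adjusted p = 0.119) and AMT1;1 by -0.91 (adjusted p = 0.0609).

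Each remaining nitrogen call was lost when certain single libraries were left out. The nitrate reductases NIA1 (Os08g0468100, -2.21) and NR2 (Os02g0770800, -2.97) and the nitrate transporter NRT1.1B (Os10g0554200, -2.37) were lower over 3 libraries. Each was lost without Line7 replicate 1 or 3, with adjusted p-values of 0.0651 to 0.0746, 0.0578 to 0.0596 and 0.0798. NR2 and NRT1.1B were below 14 CPM in every library, and reads of NIA1 may be shared with its near-identical neighbour NIA2. The nitrite reductase NiR (Os01g0357100, 1.32) and the asparagine synthetase ASN1 (Os03g0291500, 3.73) were higher at levels of at most 4.97 and 8.37 CPM. NiR was lost without WT replicate 2 or Line7 replicate 3 (adjusted p 0.0508 to 0.107), and ASN1 without WT replicate 2 or 3 or Line7 replicate 1 or 3 (adjusted p 0.0517 to 0.0898). Plastid glutamate synthase Fd-GOGAT (Os07g0658400), the main ammonium-assimilating partner of GS2 in leaves, did not pass (-0.63, adjusted p = 0.0834). Fd-GOGAT passed over 3 libraries with DESeq2 (adjusted p = 0.0291). Over 4 libraries the changes were -1.35 (adjusted p = 0.183) for NIA1, -1.71 (adjusted p = 0.17) for NR2 and -1.38 (adjusted p = 0.204) for NRT1.1B. They were 1.09 (adjusted p = 0.0994) for NiR and 3.33 (adjusted p = 0.102) for ASN1.

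In iron and phosphate homeostasis, 5 of 9 tested genes were lower and none higher over 3 libraries, with a median of -1.47. Over 4 libraries only PHO2 was lower, with a median of -1.09. PHO2 (Os05g0557700), the ubiquitin-conjugating enzyme that limits phosphate uptake, was at 206, 129, 150 and 153 CPM in WT and at 50.8, 48.5 and 53.9 CPM in Line7 replicates 1, 3 and 4, with 111 CPM in the library labelled replicate 2. All 4 libraries lay below WT, and the change was -1.65 over 3 (SE 0.176, adjusted p = 3.93e-05) and -1.27 over 4 (SE 0.261, adjusted p = 0.0192). The phosphate sensors SPX1 (Os06g0603600) and SPX2 (Os02g0202200) changed by -1.47 (adjusted p = 0.00902) and -1.91 (adjusted p = 0.00736) over 3 libraries, and SPX1 was lost without Line7 replicate 1 (adjusted p = 0.0525). The ferritins FER1 (Os11g0106700) and FER2 (Os12g0106000), plastid iron stores, changed by -1.80 (adjusted p = 0.0168) and -1.90 (adjusted p = 0.0146). FER2 was at 712, 1270, 1630 and 965 CPM in WT and at 250, 185 and 488 CPM in the 3 Line7 libraries, with 1110 CPM in the library labelled replicate 2. Both ferritin calls, whose reads may be split between these near-identical copies, were lost without Line7 replicate 1 or 3, with adjusted p of 0.0824 to 0.0854 for FER1 and 0.0733 to 0.0751 for FER2. PHR2 (Os07g0438800), the central phosphate regulator, did not pass (-0.36, adjusted p = 0.24). Over 4 libraries SPX1 and SPX2 changed by -1.11 (adjusted p = 0.0783) and -1.39 (adjusted p = 0.079), and FER1 and FER2 by -1.09 (adjusted p = 0.209) and -1.17 (adjusted p = 0.188).

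Carotenoid and plastid isoprenoid genes, which also supply the phytol tail, gave 4 higher and 2 lower of 14 tested over 3 libraries (median 0.04), and 2 higher over 4 (median -0.03). DXS1 (Os05g0408900), the entry enzyme of plastid isoprenoid synthesis, was at 16.1, 19.2, 18.4 and 16.5 CPM in WT and at 118, 81.8 and 164 CPM in Line7 replicates 1, 3 and 4, with 19.2 CPM in the library labelled replicate 2. Its change was 2.79 over 3 (SE 0.453, adjusted p = 0.000937) and 2.45 over 4 libraries (adjusted p = 0.0291). LCYE (Os01g0581300), the cyclase leading to lutein, was at 17.1 to 24.8 CPM in WT and at 119, 122 and 94.3 CPM, with 18.4 CPM in the library labelled replicate 2 (2.39, SE 0.19, adjusted p = 4.58e-06 over 3, and 2.05, adjusted p = 0.0201 over 4). The phytoene synthases, which open the carotenoid branch, split. PSY1 (Os06g0729000) was higher (1.11, adjusted p = 0.005), while PSY2 (Os12g0626400, -0.72, adjusted p = 0.0136) and PSY3 (Os09g0555500, -1.23, adjusted p = 0.000708) were lower, PSY2 not without Line7 replicate 1 (adjusted p = 0.0957). VDE (Os04g0379700), the violaxanthin de-epoxidase of energy quenching, was higher over 3 libraries (1.09, adjusted p = 0.00161). HDR (Os03g0731900), the last enzyme of the isoprenoid supply path, did not pass (-0.41, adjusted p = 0.152). Over 4 libraries PSY1, PSY2, PSY3 and VDE changed by 0.86 (adjusted p = 0.11), -0.60 (adjusted p = 0.0726), -0.64 (adjusted p = 0.238) and 0.86 (adjusted p = 0.0678).

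Regulators of greening did not pass in either comparison. These were GLK1, GLK2, Cga1, PIL13 and SIG1, with changes of -0.72 to 0.40 over 3 libraries. GLK1 was at 171, 173, 117 and 123 CPM in WT. It was at 85.7, 113, 69.4 and 111 CPM in Line7 replicates 1 to 4, all below WT. Its change was -0.72 over 3 (adjusted p = 0.0811) and -0.62 over 4 libraries (adjusted p = 0.153). Of 9 clock genes, 3 were lower over 3 libraries (median -0.62) and none passed over 4 (median -0.51). PRR59 (Os11g0157600), a pseudo-response regulator of the clock, measured 43.8 to 59.3 CPM in WT and 27.0, 19.6 and 31.7 CPM in Line7 replicates 1, 3 and 4, with 54.9 CPM in the library labelled replicate 2 (-0.91, adjusted p = 0.00372). Its relative PRR95 (Os09g0532400) changed by -1.21 (adjusted p = 0.0155) and was lost without Line7 replicate 1 (adjusted p = 0.0759) or 3 (adjusted p = 0.0795). Over 4 libraries PRR59 changed by -0.55 (adjusted p = 0.184) and PRR95 by -0.86 (adjusted p = 0.133). LHY (Os08g0157600), the morning clock factor, was at 3430, 2550, 2540 and 2270 CPM in WT and 1630, 2000, 1260 and 1760 CPM in Line7 replicates 1 to 4. All 4 Line7 libraries were below WT, and the change was -0.80 (adjusted p = 0.0336) over 3 and -0.70 (adjusted p = 0.083) over 4. The LHY call was lost without WT replicate 1 or 3 or Line7 replicate 1, 3 or 4 (adjusted p 0.0557 to 0.145). GI (Os01g0182600) did not pass over 3 (-0.62, adjusted p = 0.0765) or over 4 libraries (-0.51, adjusted p = 0.171). Over 3 libraries GI passed with upper-quartile scaling (adjusted p = 0.0476) and with DESeq2 (adjusted p = 0.035). All samples carry the same hour in their labels, and differences in sampling time within that hour were not tested.

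Of 8 tested heading-date genes, 2 were lower over 3 libraries and none over 4, beside 25.2% and 6.97% of all rows called. Ehd1 (Os10g0463400), an activator of florigen genes, was at 1.31, 1.63, 1.54 and 1.12 CPM in WT and 0.0641, 0.315 and 0.346 CPM in Line7 replicates 1, 3 and 4, with 1.07 CPM in the library labelled replicate 2 (-2.51, adjusted p = 0.00863). MADS15 (Os07g0108900), a gene of the floral transition, changed by -1.73 (adjusted p = 0.0153) and was lost without Line7 replicate 1 (adjusted p = 0.0683) or 3 (adjusted p = 0.0747). Over 4 libraries Ehd1 changed by -1.60 (adjusted p = 0.109) and MADS15 by -1.32 (adjusted p = 0.085). MADS14 (Os03g0752800) did not pass over 3 (-0.47, adjusted p = 0.144) or over 4 libraries (-0.39, adjusted p = 0.251).

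Several defence genes were higher in Line7. Of 12 members, 7 were higher and none lower over 3 libraries, with a median of 1.45, and 3 were higher over 4, with a median of 1.32. For 3 of the WRKY factors the library labelled Line7 replicate 2 lay above WT with its group. WRKY62 (Os09g0417800), a defence regulator, was at 3.04, 6.83, 6.20 and 8.84 CPM in WT and at 43.3, 46.6, 33.8 and 39.5 CPM in Line7 replicates 1 to 4. WRKY45 (Os05g0322900), which acts in salicylate-dependent and benzothiadiazole-induced resistance, was at 102, 214, 191 and 207 CPM in WT and at 715, 375, 674 and 544 CPM in Line7 replicates 1 to 4. For both genes all 4 Line7 libraries were above all WT libraries. WRKY62 changed by 2.64 over 3 (SE 0.387, adjusted p = 0.000451) and 2.71 over 4 libraries (SE 0.366, adjusted p = 0.00931), and WRKY45 by 1.85 (SE 0.285, adjusted p = 0.000591) and 1.69 (SE 0.298, adjusted p = 0.0146). WRKY76 was at 23.4, 107, 97.6 and 58.9 CPM in WT and at 137, 187, 130 and 203 CPM in Line7 replicates 1 to 4, but did not pass over 3 (1.12, adjusted p = 0.222) or over 4 libraries (1.19, adjusted p = 0.211).

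The pathogenesis-related genes, whose proteins accumulate in defence, showed the other pattern. PR1b (Os01g0382000) was at 12.6, 9.97, 0.368 and 15.3 CPM in WT and at 452, 420 and 238 CPM in Line7 replicates 1, 3 and 4, with 6.50 CPM in the library labelled replicate 2. PR5 (Os12g0628600), a thaumatin-like protein, was at 29.0, 34.6, 18.9 and 108 CPM in WT and at 755, 897 and 555 CPM in the same libraries, with 20.8 CPM in the library labelled replicate 2. The 3 Line7 libraries were above WT in both genes and the fourth was inside its range. PR1b was 38.6-fold higher over 3 libraries (log2 change 5.27, SE 1.09, adjusted p = 0.00444) and changed by 4.86 over 4 (SE 1.31, adjusted p = 0.0437), and PR5 changed by 3.94 (adjusted p = 0.0047) and 3.54 (adjusted p = 0.0557). PR1a (Os07g0129200) changed by 2.72 over 3 libraries (adjusted p = 0.00943), and the ribonuclease-like PBZ1 (Os12g0555500) and PR10b (Os12g0555000), neighbours of like sequence, by 1.16 (adjusted p = 0.00309) and 1.74 (adjusted p = 0.00534). NH1 (Os01g0194300), the salicylate co-regulator, and WRKY53 (Os05g0343400) did not pass (0.69, adjusted p = 0.128, and 0.22, adjusted p = 0.698). Neither did WRKY71 (-0.56) and WRKY13 (-0.13). Over 4 libraries PR1a, PBZ1 and PR10b changed by 2.35 (adjusted p = 0.0788), 0.93 (adjusted p = 0.0719) and 1.45 (adjusted p = 0.0649).

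Genes of diterpenoid phytoalexins, the antimicrobial compounds of rice, gave 6 higher and 1 lower of 8 tested over 3 libraries (median 2.20), and 4 higher over 4 (median 1.95). The momilactone cluster on chromosome 4 was represented by 5 listed genes, of which CPS4, KSL4, MAS and CYP99A3 were higher over 3 libraries. The fifth, CYP99A2 (Os04g0180400), had 0 counts in WT and 1 in Line7 and was not tested. CPS4 (Os04g0178300), the first cyclase of the cluster, was at 10.4, 8.02, 4.36 and 5.79 CPM in WT and at 58.8, 37.6 and 45.6 CPM in Line7 replicates 1, 3 and 4, with 6.84 CPM in the library labelled replicate 2 (2.72, adjusted p = 0.0021 over 3, and 2.38, adjusted p = 0.0404 over 4). KSL4 (Os04g0179700), the second cyclase, was at 0 to 0.835 CPM in WT and at 5.64, 2.20 and 5.88 CPM, with 0.392 CPM in the library labelled replicate 2 (4.06, adjusted p = 0.00352, and 3.68, adjusted p = 0.0375). MAS (Os04g0179200), momilactone A synthase, was at 0.184 to 0.867 CPM in WT and at 9.87, 1.07, 2.08 and 3.73 CPM in Line7 replicates 1 to 4, all above WT (3.37, adjusted p = 0.00265, and 3.05, adjusted p = 0.0283). CYP99A3 (Os04g0178400) changed by 0.92 over 3 libraries (adjusted p = 0.0352), lost without WT replicate 1 or 3 or Line7 replicate 1 or 3 (adjusted p 0.0809 to 0.125). Over 4 libraries it changed by 0.77 (adjusted p = 0.115).

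On chromosome 2, genes of the phytocassane cluster differed in direction. KSL7 (Os02g0570400), its diterpene cyclase, was at 2.33, 1.14, 0.307 and 0.747 CPM in WT and at 14.4, 8.87 and 9.06 CPM in Line7 replicates 1, 3 and 4, with 1.79 CPM in the library labelled replicate 2 (3.24, adjusted p = 0.00245 over 3, and 2.90, adjusted p = 0.0309 over 4). CPS2 (Os02g0571100), the preceding cyclase, was lower over 3 libraries (-0.73, adjusted p = 0.0356), with 81.7 to 103 CPM in WT and 45.5, 73.3, 74.9 and 46.0 CPM in Line7 replicates 1 to 4. That call was lost without WT replicate 1, 2 or 3, Line7 replicate 1 or 4, or Line8 replicate 4 (adjusted p 0.0507 to 0.184). CYP76M7 (Os02g0569900), a hydroxylase of the cluster, did not pass (1.68, adjusted p = 0.114), although all 4 Line7 libraries were above WT. It passed without Line8 replicate 1 (adjusted p = 0.0224) or 3 (adjusted p = 0.0283), and with only the WT and Line7 libraries (adjusted p = 0.00379). KSL8 (Os11g0474800), of oryzalexin synthesis, was higher (1.13, adjusted p = 0.0155) except without Line7 replicate 3 (adjusted p = 0.0553). Over 4 libraries CPS2 changed by -0.61 (adjusted p = 0.101) and KSL8 by 0.96 (adjusted p = 0.0737).

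No tested jasmonate gene passed as higher. Of 9 tested, 2 were lower over 3 libraries (median -0.50) and 1 over 4 (median -0.33), beside 25.2% and 6.97% of all rows called. JAR1 (Os05g0586200), which conjugates jasmonate to isoleucine, was at 121 to 142 CPM in the 4 WT libraries and at 73.0, 108, 82.4 and 73.2 CPM in Line7 replicates 1 to 4. All 4 Line7 libraries were below WT, with a change of -0.81 (SE 0.13, adjusted p = 0.000783) over 3 and -0.66 (SE 0.156, adjusted p = 0.0284) over 4. OPR7 (Os08g0459600), a reductase of jasmonate synthesis, passed at -0.53 (adjusted p = 0.0252) and was lost without WT replicate 1 or 4 or Line7 replicate 1, 3 or 4 (adjusted p 0.0508 to 0.108). Over 4 libraries it changed by -0.33 (adjusted p = 0.262). The most abundant JAZ repressor, Os07g0615200, did not pass (-0.50, adjusted p = 0.123).

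Among phenylpropanoid and flavonoid genes, 1 of 8 tested was lower over 3 libraries and none passed over 4. The shares of all rows called were 25.2% and 6.97%. The gene was PAL Os04g0518100, a phenylalanine ammonia-lyase (-1.12, adjusted p = 0.0347), lost without WT replicate 1, 3 or 4 or Line7 replicate 1, 3 or 4 (adjusted p 0.0506 to 0.136). It was at 48.5 ± 6.11 CPM in WT (SD, n = 4), 22.3 ± 5.32 CPM in Line7 replicates 1, 3 and 4 (SD, n = 3) and 60.1 CPM in the library labelled replicate 2, and its change over 4 libraries was -0.61 (adjusted p = 0.353). PAL copies may share reads, and the copy Os02g0626400, with 282 ± 264 CPM in WT (SD, n = 4), did not pass (0.37, adjusted p = 0.751).

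Antioxidant enzymes gave 4 higher of 7 over 3 libraries (median 0.61) and none over 4 (median 0.50). The plastid superoxide dismutase pCSD (Os08g0561700) was at 83.7, 136, 132 and 113 CPM in WT and at 272, 301 and 240 CPM in Line7 replicates 1, 3 and 4, with 100 CPM in the library labelled replicate 2 (1.22, SE 0.296, adjusted p = 0.0105). It stayed called whichever library was left out, unlike the other 3. CATA (Os02g0115700, 2.1), a catalase, was lost without WT replicate 1, 2 or 3 or Line7 replicate 1 or 3 (adjusted p 0.0721 to 0.134). APX8 (Os02g0553200, 0.77), the thylakoid ascorbate peroxidase, was lost without WT replicate 1, 3 or 4 or Line7 replicate 3 or 4 (adjusted p 0.0507 to 0.0766). MSD (Os05g0323900, 0.61), the mitochondrial superoxide dismutase, was lost without WT replicate 3 or Line7 replicate 1 or 3 (adjusted p 0.0619 to 0.0808). The cytosolic peroxidase APX2 (Os07g0694700) did not pass (-0.40, adjusted p = 0.209). Over 4 libraries the changes were 0.98 (adjusted p = 0.105) for pCSD, 1.76 (adjusted p = 0.157) for CATA, 0.61 (adjusted p = 0.142) for APX8 and 0.50 (adjusted p = 0.102) for MSD.

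The calls among heat and drought genes stand beside 25.2% of all rows called over 3 libraries and 6.97% over 4. Of 7 tested heat shock genes, 2 were higher over 3 libraries, both at low counts, and 1 over 4. HSP90 (Os04g0107900), a chaperone, had 3 counts over all WT libraries and 89 over Line7 replicates 1, 3 and 4, a ratio of 45.0 after library totals (exact 95% interval 14.9 to 222, counting error only), with 0.112 CPM in the library labelled replicate 2. The plastid chaperone HSP26 (Os03g0245800) was at 0 to 0.271 CPM in WT and at 1.35, 0.944 and 1.18 CPM in the same libraries (2.78, adjusted p = 0.016), and was lost without Line7 replicate 1 (adjusted p = 0.0507). The heat factor HsfA2d (Os03g0161900) did not pass (-0.20, adjusted p = 0.59). HSP90 passed in both comparisons (adjusted p = 0.000406 over 3 and 0.0207 over 4), whereas HSP26 changed by 2.45 over 4 libraries (adjusted p = 0.0741).

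Of 8 tested DREB and NAC factors, 2 were lower over 3 libraries and none passed over 4. NAC10 (Os11g0126900) had 81 counts over WT and 3 over Line7 replicates 1, 3 and 4, a WT to Line7 ratio of 17.8 (exact 95% interval 5.88 to 88.1, counting error only), and it was at 3.31 CPM in the library labelled replicate 2, above every WT library. Its call was lost without Line7 replicate 1, 3 or 4 (adjusted p 0.0536 to 0.0692), and without WT replicate 1 or 4 or Line8 replicate 2 its counts were too low to test. NAP (Os03g0327800), a senescence regulator, changed by -1.33 (adjusted p = 0.0252) and was lost without WT replicate 1 or 4 or Line7 replicate 3 or 4 (adjusted p 0.0529 to 0.107). Over 4 libraries NAC10 changed by -0.43 (adjusted p = 0.833) and NAP by -0.97 (adjusted p = 0.135). DREB1B (Os09g0522000), a cold-response factor too low to test, was at 11.4 CPM in Line7 replicate 3 and at most 0.76 CPM in the other 7 libraries. The stress factor SNAC2 (Os01g0884300) did not pass (-0.80, adjusted p = 0.078), but did without WT replicate 1 (adjusted p = 0.015) and with DESeq2 (adjusted p = 0.0439). None of 5 tested genes of the abscisic acid response passed. The most abundant of them in WT, bZIP72 (Os09g0456200), changed by -0.37 over 3 libraries (adjusted p = 0.188).

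Of 7 tested cytokinin response regulators, RR6 (Os04g0673300) was higher in both comparisons. It measured 5.79, 10.6, 7.49 and 9.90 CPM in WT and 17.4, 11.9, 18 and 21.9 CPM in Line7 replicates 1 to 4, all above WT. Its change was 1.18 (adjusted p = 0.00241) over 3 and 1.03 (adjusted p = 0.0255) over 4 libraries. None of 5 tested cellulose synthases passed, with changes of -0.64 to -0.11 over 3 libraries.

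As a check of the tissue, 8 genes that mark root, floret, meristem and endosperm summed to 34.9 to 35.4 CPM in WT, 17.4 to 27.1 CPM in Line7 replicates 1, 3 and 4, and 32.1 CPM in the library labelled replicate 2. Of these, 3 were at 0 in every WT and Line7 library (the root genes RCc3 and Lsi2 and the meristem gene OSH1). The silicon transporter Lsi1 was the most abundant, at 17.6 to 24.0 CPM in WT and 8.85 to 14.6 CPM in Line7 replicates 1, 3 and 4. Wx (Os06g0133000), the endosperm starch synthase, was lower over 3 libraries (-0.97, adjusted p = 0.0364), which was lost without WT replicate 1, 3 or 4 or Line7 replicate 1, 3 or 4 (adjusted p 0.0651 to 0.154). Of 3 genes often used as references, UBQ5 (Os01g0328400, 1.36, adjusted p = 0.0131) and eEF1A (Os03g0177900, 1.06, adjusted p = 0.0023) were higher over 3 libraries, and ACT1 (Os03g0718100) was not (-0.07). Over 4 libraries Wx changed by -0.70 (adjusted p = 0.166), UBQ5 by 1.11 (adjusted p = 0.0932) and eEF1A by 0.84 (adjusted p = 0.079). Some loci known for abundant leaf transcripts were low, such as LFNR1 at 9.16 ± 2.77 CPM and NiR at 1.49 ± 0.504 CPM in WT (SD, n = 4), and whether the counts of these loci hold all of their transcripts was not tested.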

How the data were processed

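Total RNA came from leaves by a Trizol extraction, per the labels' protocols. The authors deposited raw counts per gene, whole numbers in 38978 rows with 1 column per library. For the aligner, counter, build and strand, a tool or setting was not given in the sources used here, so reads of overlapping, antisense or near-identical genes may be misassigned. No coordinates or sequences were used. Groups came from the titles, and columns from the descriptions.

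Counts were fitted in edgeR 4.0.16 (R 4.3.3) with filterByExpr, TMM and a robust quasi-likelihood model with group as the factor, over all 12 libraries and again over 11, without the library labelled Line7 replicate 2. P-values were adjusted by Benjamini-Hochberg over all tested rows (threshold 0.05). SEs come from the change and the F statistic. The code was tested on simulated counts with 200 changed genes, each shifted alike in all Line7 libraries. No simulated library departed from its group as the library labelled Line7 replicate 2 did. The shares below therefore cannot rank the 3-library and 4-library comparisons of these data. There edgeR recovered 71% of 4-fold and 13.1% of 2-fold changes over 3 libraries, and 84% and 26.3% over 4. A gene that did not pass may therefore still have changed. Unchanged genes made up 4.55% of edgeR calls over 3 libraries and 4.35% over 4. For DESeq2 these shares were 25.9% and 22.5%. All of these shares hold for the simulated setting only, in which fewer genes changed than edgeR called here. Alternatives used DESeq2 1.42.0, limma-voom (limma 3.58.1), other scalings, filters and sets of libraries. Depth was 14746933 to 19822636 counts.

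The 23 pathway lists and their members were chosen with earlier results of these data known, so lists carry no test. Gene symbols come from general knowledge of rice. Named were all chlorophyll synthesis genes and, per list, up to 3 called genes with the largest change in the 3-library comparison. The uncalled gene highest in WT was also named per list, except RR2 (cytokinin regulators) and CESA3 (cellulose synthases). Other members were named after their values were seen.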

Additional observations from a re-analysis of the deposited data

Results flagged for a closer look

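For the named genes, each group of 4 libraries was examined for a library far from the other 3, by the gap to its nearest neighbour divided by the range of the group. In 15 of 178 groups this ratio passed the 95% critical value of Dixon's test, and chance alone gives about 1 in 20. The library labelled Line7 replicate 2 was the one apart in 9 of the 15, which is no independent sign, since most of these genes were named for their change without that library. Among photosynthesis genes its ratio was 0.914 for GSA, 0.92 for CHLI, 0.893 for PsbQ and 0.908 for PsbO, where it was the lowest of its group. It was the highest of its group for NRT1.1B (0.831), NAC10 (0.998), the JAZ gene Os07g0615200 (0.864), PHO1 (0.925) and BEIIa (0.852). NAC10 measured 3.31 CPM there and at most 0.0691 CPM in the other Line7 libraries.

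In other libraries, DVR was high in Line7 replicate 4 (0.846, 135 CPM) and GWD1 low in Line7 replicate 3 (0.863, 196 CPM). WT replicate 1 was apart for CAB1R (0.907, low at 4050 CPM), MADS14 (0.871, high at 516 CPM) and KSL4 (0.851, high at 0.835 CPM), and WT replicate 2 for GSA (0.85, high at 135 CPM).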

How the results depend on the processing

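For the 3-library comparison, the fall of YGL1 held under all alternatives. Its 5156 calls stayed within 1.5 times under every scaling, filter and test tried (4606 to 6221). They became 6347 with only the WT and Line7 libraries and 3708 with a replicate block. With single libraries left out they ran from 3036 to 6684, the higher calls from 2120 to 3956 and the lower from 860 to 2728. Of the 88 pathway genes called there, 53 stayed called under all 20 alternatives, and none changed sign. With no further library left out, 76 stayed called with a replicate block, 82 with no filter on low counts, 85 with limma-voom and 86 with upper-quartile scaling.

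The 4-library comparison was less stable. Its 1409 calls (1196 higher, 213 lower) became 3024 (2167 and 857) with DESeq2, 22 (12 and 10) with limma-voom and 587 (511 and 76) with only the WT and Line7 libraries. Library totals without scaling gave 121 lower calls. Leaving out single libraries gave 7 to 5156 calls, 4 to 3058 higher and 3 to 2098 lower. The log2 change of YGL1 ran from -0.87 to -0.31, and it passed only without the library labelled Line7 replicate 2 (adjusted p = 0.00592). Of the 25 pathway genes called there, 1 stayed called with limma-voom and at most 1 without WT replicate 1, 3 or 4 or Line7 replicate 1 or 3. The cause was not tested.

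Replicate numbers were shared between groups, and the deviations of same-numbered libraries from their group mean correlated at 0.179, -0.0346, -0.0733 and -0.226. The Line7 mean included the library labelled replicate 2, and no reference values were computed. The correlations therefore cannot decide whether the numbers pair the libraries. With a replicate block, the 4-library comparison gave 475 calls (391 and 84) and the 3-library comparison 3708, of which 1301 were lower. At this depth 36 of the 257 pathway genes had too few counts to test.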
